A study of Drosophila melanogaster with 14 samples.

Results

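The accessory glands of the male fly are a pair of secretory organs whose cells make most of the proteins of the seminal fluid, and the ejaculatory duct and bulb add others. These proteins pass to the female with the sperm, where they drive ovulation and egg laying, lower her readiness to mate again, and help sperm to be stored. They include small peptides such as the sex peptide, prohormone-like proteins, protease inhibitors, proteases, cysteine-rich proteins and lectins, and nearly all of them are made in the male only.

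Genes of this class were followed in flies with the sesB1 mutation, an allele of the gene for the main adenine nucleotide translocase of the fly, the carrier that exchanges ATP for ADP across the inner mitochondrial membrane. The members were 34 probesets of 34 genes, of 18769 probesets tested and 13646 with a single gene symbol. They were chosen by a rule on gene names, which was set with earlier results of these data known. The rule took Acp and Sfp genes followed by a map position, Mst57D genes, and the named genes SP, Ebp, EbpII, Dup99B, Sems, aqrs, antr, intr, lectin-46Ca, lectin-46Cb, msopa and CG33325. CG33325 was picked by the study on these same flies, so its change is not independent evidence. A further 5 probesets that name a seminal fluid gene together with another gene were left out, and Est-6 and Mst57Db had no probeset of their own. No filter on low values was applied, so all 34 are accounted for.

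Total RNA of whole flies was hybridized to Affymetrix Drosophila 2.0 arrays, 4 of sesB1 males, 3 of wild-type males, 4 of sesB1 virgin females and 3 of wild-type virgin females. The sesB1 flies were F1 progeny of homozygous mutant mothers of a Canton S background and mutant fathers of an Oregon R background, after more than 10 generations of backcrossing of the mutation to each strain, and the wild-type flies were the F1 of a Canton S mother and an Oregon R father. Both genotypes were therefore hybrids of the same parental strains. The study also reports that homozygous sesB1 females were essentially sterile, which conflicts with homozygous mutant mothers, and this conflict was not resolved here. Their age was 2 days according to the sample labels and the study's methods, whereas the series' design text gives 1 day. The isolations were described as triplicate from pooled batches of flies, although 4 arrays stand for each sesB1 group, so p-values measure only the spread between these arrays, part of which may be technical. Each value is a log2 signal set relative to the median of its probeset over the 14 arrays, so it tells how arrays differ and says nothing of how bright a gene is. For a gene higher in every male array than in every female array, the value 0 lies midway between the lowest male and the highest female array by construction. In whole flies, fewer gland cells and less RNA per gland cell cannot be told apart.

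Wild-type males and wild-type females were first compared to check that the genes behave as products of a male organ. Of the 34 genes, 33 were higher in wild-type males at a limma adjusted p under 0.05, whereas 24.7% of all probesets were called higher in that comparison. Their median difference was 7.56 on the log2 scale, beside a median of -0.15 over all probesets, which became -0.01 when each array was centred on its median. EbpII, a protein of the ejaculatory bulb that enters the mating plug, differed most, by 10.04 on the log2 scale. Acp53Ea (9.87), Ebp (9.83), Acp53C14b (9.71) and Acp36DE (9.58) followed. At the other end, intr and lectin-46Ca were higher in males by 3.45 and 3.75 on the log2 scale, and CG33325 by 2.82. Acp95EF differed by 0.69 (adjusted p = 0.0121). Sfp65A, at 0.20 (adjusted p = 0.354), was not called in either direction, so its probeset did not bear out the label, and its value had the opposite sign (-0.05) without wild-type male array 1.

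A few arrays stood apart within their labelled group. In sesB1 female arrays 4 and 2, the 15 members with a sex difference of at least 8 log2 units lay above the wild-type female mean by medians of 3.99 and 2.10, whereas the medians were between -0.07 and 0.04 in the other 5 female arrays. The signal in array 4 was 0.896 to 5.8% of the wild-type male mean for these 15 genes, and in array 2 it was 0.417 to 2.24%. Testis genes stood high in the same arrays. The 9 of them with a sex difference of at least 7 log2 units had medians of 2.97 in array 4 and 1.99 in array 2, and between 0.00 and 0.10 in the other female arrays. The female markers were yolk, eggshell and germline genes with Send1 and Send2 (19 probesets). Among males, their median lay 2.68 above the wild-type male mean in wild-type male array 2 and 0.62 above it in sesB1 male array 4. The other 5 male arrays lay between -1.45 and -1.27. The rise was not the same in both arrays. Yolk and osk probesets were raised in both, but the Cp eggshell genes only in wild-type male array 2. In sesB1 male array 4 the Cp genes lay near the other sesB1 males (Cp15 at -4.61, against -4.81 to -4.71). Send1 was raised only in sesB1 male array 4, at -1.27 against -4.18 to -3.94 in the other sesB1 males. Arrays of 1 group correlated at r from 0.855 to 0.982 over all probesets. Counts that rest on these arrays are given with and without them.

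**Figure D1:**
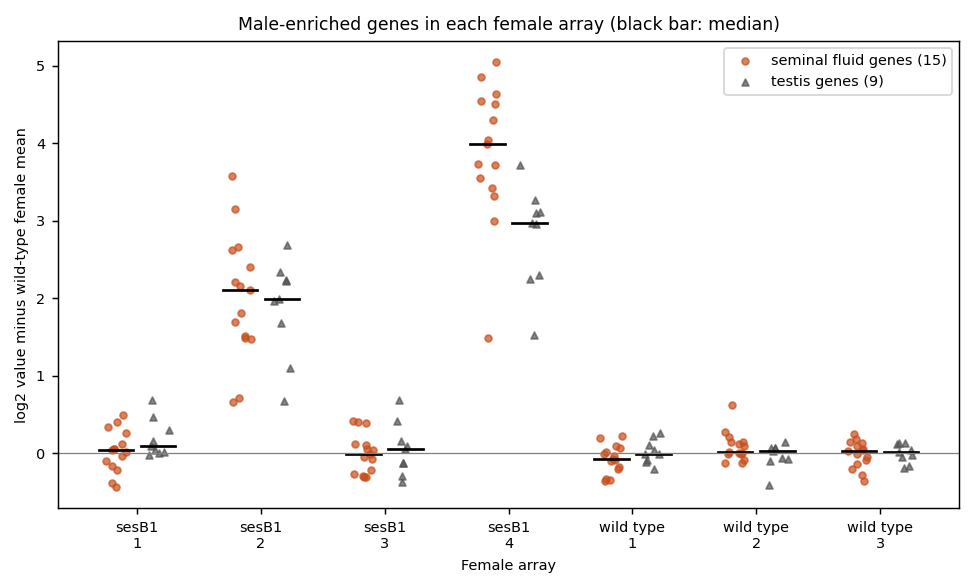
Log2 values of the 15 seminal fluid genes (circles) and 9 testis genes (triangles) that are most male-enriched, minus the wild-type female mean, in each of the 7 female arrays, with the median of each set as a black bar. The sets lie near 0 in 5 arrays and are raised in sesB1 arrays 2 and 4, where the seminal fluid medians are 2.10 and 3.99.

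The main question was whether males that carry the mutation express these genes at wild-type levels. They were lower as a class in sesB1 males. Of the 34 genes, 28 were lower, 1 was higher and 5 were not called at a limma adjusted p under 0.05, beside 10.8% of all probesets called lower and 11.1% called higher. The estimate was negative for 33 of them, and the median was -0.65 on the log2 scale, which is 63.7% of the wild-type male level, beside -0.01 over all probesets. A change of at least 2-fold with the same adjusted p was reached by 6 genes, all lower, beside 0.741% of all probesets. In 31 genes every sesB1 male array was below every wild-type male array, beside 15.3% of all probesets. Against the wild-type mean of each gene, the median over the 34 genes was -0.57, -0.57, -0.75 and -0.74 in the 4 sesB1 male arrays, so that the arrays differed little from each other, and between -0.02 and 0.04 in the 3 wild-type male arrays. Without wild-type male array 2 and sesB1 male array 4, 26 genes were lower and none higher, and the median was again -0.65.

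**Figure D2:**
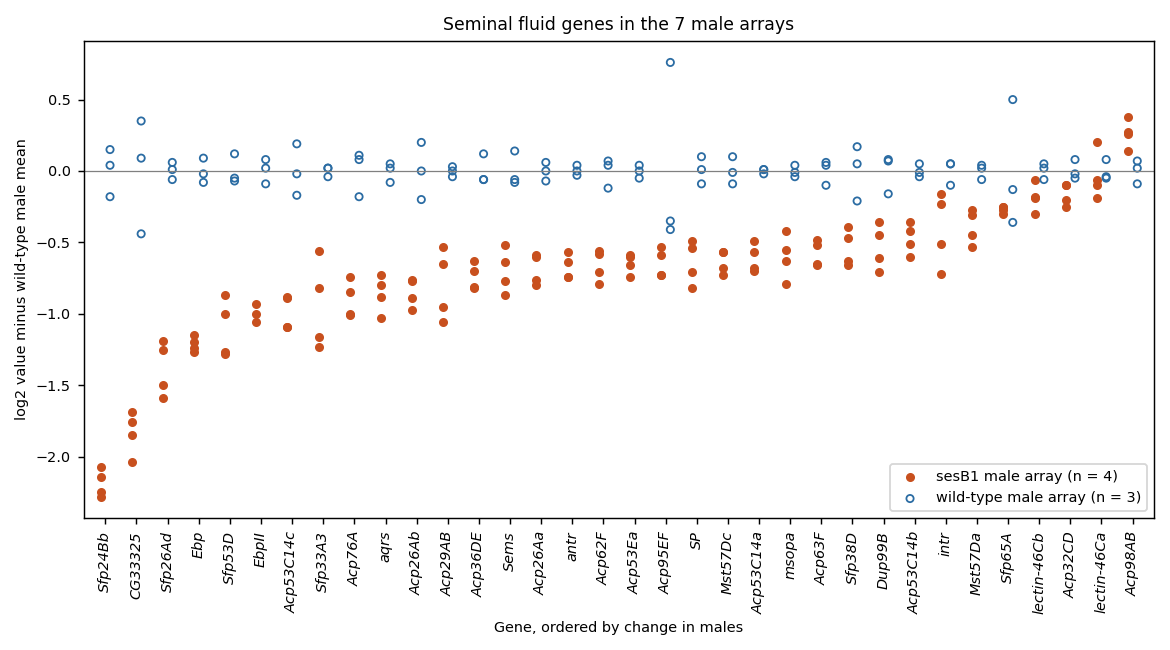
Log2 value of each of the 34 genes in the 7 male arrays, minus the wild-type male mean of that gene, with sesB1 arrays as filled points and wild-type arrays as open points. In 31 genes the 4 sesB1 points (3 for EbpII) lie below all 3 wild-type points, and in Acp98AB they lie above them.

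The size of the fall varied between genes. Sfp24Bb, which encodes a seminal fluid protein, fell most. Its values were 2.40, 2.47, 2.29 and 2.26 in the sesB1 male arrays, against 4.36, 4.69 and 4.58 in the wild-type male arrays. The groups were well apart, and the level in sesB1 males was 22% of the wild-type level (log2 fold change -2.19, standard error 0.09, limma adjusted p = 3.38e-07). CG33325 had 0.66, 0.50, 0.59 and 0.31 in sesB1 males, against 2.44, 1.91 and 2.70 in wild-type males (-1.83, standard error 0.16, adjusted p = 3.57e-05). Its wild-type arrays were more spread than those of most members, yet did not reach the sesB1 values. Sfp26Ad fell by 1.39 on the log2 scale (adjusted p = 1.1e-05) and Sfp53D by 1.11 (adjusted p = 7.12e-05). Sfp33A3 had a smaller log2 fold change of -0.94 (adjusted p = 0.00112), and its sesB1 arrays lay between 2.17 and 2.84, against 3.36 to 3.42 in wild-type males. Sfp38D changed by -0.54 (adjusted p = 0.00457). The calls of Sfp26Ad, Sfp33A3 and Sfp38D were lost after either quantile normalization. The value of Sfp26Ad was then -0.65 (limma adjusted p = 0.0865) over all arrays and -0.37 (adjusted p = 0.0801) within each sex.

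Ebp and EbpII, products of the ejaculatory bulb, where the mating plug takes shape, were among the members that fell furthest. EbpIII, which is no member, differed by only 0.11 on the log2 scale (limma adjusted p = 0.32). Ebp had values of 2.38, 2.33, 2.26 and 2.29 in sesB1 males, against 3.45, 3.62 and 3.51 in wild-type males. The level was thus 43.1% of wild type, with less spread within each group than between them (log2 fold change -1.21, standard error 0.07, adjusted p = 2.03e-06). EbpII, the gene next to it on the chromosome, had 2.41, 2.48 and 2.35 in sesB1 males, against 3.32, 3.49 and 3.43 in wild-type males. This 2.0-fold difference (-1.0, standard error 0.08, adjusted p = 3.45e-05) rests on 3 sesB1 arrays, since the value of array 4 was missing. Dup99B, a peptide of the ejaculatory duct related to the sex peptide, had 2.61, 2.52, 2.26 and 2.36 in sesB1 males, against 3.05, 2.81 and 3.04 in wild-type males. Its log2 fold change was -0.53 (standard error 0.10, adjusted p = 0.00367), a call lost after either quantile normalization.

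The best known signals to the mated female are the sex peptide and ovulin. SP encodes the sex peptide, which lowers receptivity and raises egg laying for days when bound to stored sperm. It had 2.51, 2.56, 2.23 and 2.34 in sesB1 males, against 3.15, 3.06 and 2.96 in wild-type males. All 4 mutant arrays were lower, at 64% of the wild-type level (log2 fold change -0.64, standard error 0.09, adjusted p = 0.000819). The value was -0.37 (limma adjusted p = 0.0433) after quantile normalization over all arrays and -0.21 (adjusted p = 0.0817) within each sex. In a joint fit with the female arrays its adjusted p was 0.48. Acp26Aa encodes ovulin, the prohormone-like protein that speeds ovulation. Its values were 2.53, 2.52, 2.36 and 2.32 in sesB1 males and 3.05, 3.12 and 3.18 in wild-type males (-0.69, adjusted p = 0.000185). Acp26Ab, the gene beside it, changed by -0.85 (adjusted p = 0.00022), although its value was 0.26 after quantile normalization over all arrays and 0.19 within each sex, neither past the test.

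Sperm storage in the mated female depends on some of these proteins. Acp36DE, a glycoprotein needed for sperm to enter the storage organs, had 2.32, 2.25, 2.13 and 2.14 in sesB1 males and 3.07, 2.89 and 2.89 in wild-type males (log2 fold change -0.74 with a standard error of 0.08, adjusted p = 0.000127). Acp29AB, a lectin-like protein that keeps sperm in storage, changed by -0.79 (adjusted p = 0.00114). This call was lost after either quantile normalization. Acp62F, which resembles trypsin inhibitors, had 2.21, 2.19, 1.98 and 2.06 in sesB1 males and 2.81, 2.65 and 2.84 in wild-type males (-0.66, adjusted p = 0.000366). The serpin gene Acp76A was lowered further, to 53.4% of wild type (-0.90, adjusted p = 0.000122). Neither inhibitor had overlapping groups.

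The Acp53 genes encode related small secreted proteins and lie in a run on the chromosome, in the order Acp53C14a, Acp53C14b, Acp53Ea and Acp53C14c. All 4 were lower in sesB1 males, beside 10.8% of all probesets, but not to the same extent. Acp53C14c had 2.22, 2.23, 2.02 and 2.02 in sesB1 males, against 3.30, 2.94 and 3.09 in wild-type males (-0.99, adjusted p = 7.65e-05). Acp53Ea had 2.29, 2.28, 2.22 and 2.14 in sesB1 males, against 2.83, 2.92 and 2.88 in wild-type males (-0.65, adjusted p = 0.000114). Acp53C14a changed by -0.61 (adjusted p = 0.000232) and Acp53C14b by -0.47 (adjusted p = 0.00144). Mst57Dc and Mst57Da, male-specific transcripts of the gland, changed by -0.64 (adjusted p = 0.000239) and -0.38 (adjusted p = 0.00705), Acp63F by -0.58 (adjusted p = 0.000468), and msopa, a male-specific gene with glutamine repeats, by -0.59 (adjusted p = 0.0011).

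Another group of seminal proteins binds the sex peptide to sperm in the mated female. Of the 6 members from this network, 4 were lower and 2 were not called, beside 10.8% of all probesets called lower. The aqrs gene encodes a serine protease homologue and had 2.41, 2.34, 2.26 and 2.11 in sesB1 males, against 3.19, 3.06 and 3.16 in wild-type males (log2 fold change -0.86 with a standard error of 0.08, adjusted p = 6.17e-05). Sems encodes the serine protease seminase and had 1.88, 2.00, 1.75 and 1.65 in sesB1 males and 2.66, 2.46 and 2.44 in wild-type males (-0.70, adjusted p = 0.000608). The cysteine-rich secretory protein gene antr had 1.65, 1.72, 1.55 and 1.55 in sesB1 males and 2.26, 2.29 and 2.33 in wild-type males (-0.67, adjusted p = 0.000104). The change of intr, a further protease homologue, was close to the threshold (-0.40, adjusted p = 0.0487). Its values were 1.85, 1.78, 1.5 and 1.29 in sesB1 males and 2.06, 1.91 and 2.06 in wild-type males, and the call was lost without sesB1 male array 3 or 4 or without any 1 of the wild-type male arrays, with log2 fold changes of -0.30 to -0.45.

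The lectins of this network stood out for their small differences. Values of lectin-46Ca were 2.05, 1.79, 1.75 and 1.66 in sesB1 males, against 1.80, 1.81 and 1.93 in wild-type males. The groups overlapped (log2 fold change -0.04, 95% confidence interval -0.25 to 0.18, adjusted p = 0.861). Its neighbour lectin-46Cb had 2.06, 2.18, 2.05 and 1.94 in sesB1 males, against 2.26, 2.29 and 2.18 in wild-type males, which gave a log2 fold change of -0.19 (95% confidence interval -0.35 to -0.02, adjusted p = 0.119). Acp32CD was similar, at -0.16 (adjusted p = 0.148). Acp95EF had 0.16, -0.04, 0.10 and -0.04 in sesB1 males and 0.28, 0.34 and 1.45 in wild-type males, where array 3 lay far above the others (-0.65, adjusted p = 0.0864). Sfp65A had a log2 fold change of -0.27 (adjusted p = 0.317) with overlapping groups. The signs for lectin-46Ca, lectin-46Cb and Acp32CD were positive after either quantile normalization.

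Acp98AB was the exception in direction. Its values were 2.37, 2.48, 2.36 and 2.24 in sesB1 males, against 2.17, 2.12 and 2.01 in wild-type males. Every sesB1 array was above every wild-type array, by 0.26 on the log2 scale on average (standard error 0.08, adjusted p = 0.0384). The difference was 0.59 (adjusted p = 0.00193) after quantile normalization over all arrays. It was no longer called when any of the sesB1 male arrays 1 to 3 or wild-type male arrays 2 and 3 was left out, with values of 0.22 to 0.27.

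The count of lower genes depended on how the spread was estimated and on the scaling. In a joint fit of the 4 groups, 14 genes were lower, since the spread between the female arrays then entered the error (the standard error of Ebp became 0.67), and 28 were lower in the same joint fit without sesB1 female arrays 2 and 4. The full joint fit lost the calls of Acp26Aa, Acp36DE, Acp53C14a, Acp53C14b, Acp53Ea, Acp62F, Acp63F, Acp76A, Dup99B, Ebp, EbpII, Mst57Da, Mst57Dc, SP and msopa. The share of all probesets called in these joint fits was not taken. After quantile normalization, 19 genes were lower and 2 higher over all arrays, and 17 lower and 2 higher within each sex, with medians of -0.39 and -0.30. In these settings 3597 and 3837 of all 18769 probesets were called in either direction. Lost after both were the calls of Acp26Ab, Acp29AB, Acp53C14b, Dup99B, Mst57Da, Sfp26Ad, Sfp33A3, Sfp38D and intr. Those of Acp63F and SP were also lost within each sex. Sfp24Bb, CG33325, Sfp53D, Acp53C14c, aqrs, Sems and antr were called lower under every alternative normalization, model and array omission tried, and of these Sfp24Bb, CG33325 and Sfp53D also differed by at least 2-fold in the main comparison. How many of all probesets kept a call in this way was not counted.

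Related genes outside the name rule were counted for comparison, again beside 10.8% of all probesets called lower in males and 11.1% called higher. Of 7 odorant-binding protein genes expressed in the accessory gland, 6 were lower in sesB1 males and none higher, with a median of -1.05 on the log2 scale. Obp56i (-1.97, adjusted p = 7.53e-06), which the study had picked on these flies, Obp8a (-1.54, adjusted p = 3.57e-05) and Obp22a (-1.09, adjusted p = 5.78e-06) changed most, and Obp56e differed by -0.16 (adjusted p = 0.373). Serpins and other seminal proteins, including seminal lipases and proteases, gave 14 lower and none higher of 17, with a median of -0.81. Here sit, an elongase-family gene also picked by the study, was furthest from 0 (-2.07, adjusted p = 3.1e-07), followed by CG17097 (-1.10, adjusted p = 1.7e-05) and the serpin Spn28B (-1.05, adjusted p = 5.53e-05). The counts and medians of the lists include Obp56i and sit, whose changes are not independent evidence. After quantile normalization the medians of these lists were -0.83 and -0.45 over all arrays, and -0.65 and -0.37 within each sex. Without wild-type male array 2 and sesB1 male array 4, all 7 odorant-binding protein genes and again 14 of the 17 others were lower. In the joint fit, 5 and 9 were lower.

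Of 5 probesets of the ejaculatory duct and bulb that are no members, 2 were higher, 1 was lower and 2 were not called, with a median of 0.11. Jhe, the juvenile hormone esterase gene, had 0.75, 0.39, 0.16 and 0.37 in sesB1 males and -0.89, -0.92 and -0.24 in wild-type males (log2 fold change 1.10, adjusted p = 0.00149). It was higher in sesB1 females as well (2.03, adjusted p = 4.73e-05). Jhedup, its duplicate, was higher by 0.51 in males (adjusted p = 0.00931), although its probeset was not called between wild-type males and wild-type females (-0.13, adjusted p = 0.424). Gld, glucose dehydrogenase of the duct, changed by -0.35 (adjusted p = 0.0303), a call lost after quantile normalization, in the joint fit and without wild-type male array 2 and sesB1 male array 4, and EbpIII differed by 0.11 (adjusted p = 0.32).

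Known regulators of the gland were mostly without a call. Of 20 probesets of 10 genes, 3 were lower and none higher, a share near the 10.8% of all probesets, and 2 were lower without wild-type male array 2 and sesB1 male array 4. The paired-domain gene prd, needed for the gland to form and to make its products, had 0.83, 0.92, 0.74 and 0.49 in sesB1 males, against 1.43, 1.5 and 1.46 in wild-type males (log2 fold change -0.72 with a standard error of 0.10, adjusted p = 0.000593). The groups did not overlap. For fru, which controls male courtship, 2 of the 7 probesets were lower, at -0.56 (adjusted p = 0.00117) and -0.31 (adjusted p = 0.0281). Both dsx probesets and those of EcR, Met, gce, Mad, tkv, dpp and dve were not called.

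The 4 genes SPR, frma, hdly and Esp belong to the part of the sex peptide network that acts in the mated female. Of their 6 probesets, 2 were higher and 2 lower in sesB1 males, beside 11.1% and 10.8% of all probesets. Without wild-type male array 2 and sesB1 male array 4, 1 was higher and 1 lower. With all male arrays, both probesets of hdly were higher (0.49, adjusted p = 0.0028, and 0.31, adjusted p = 0.0327). SPR, the sex peptide receptor, was lower on 1 of its 2 probesets (-0.38, adjusted p = 0.0115), while the other gave 0.08 (adjusted p = 0.601), and Esp was lower by a log2 fold change of -0.28 (adjusted p = 0.0479).

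Testis genes, which mark the other male reproductive organ, were set beside these values. Of 20 probesets of testis and late spermatid genes, 10 were lower in sesB1 males and none higher, beside 10.8% of all probesets called lower, with a median of -0.26. After quantile normalization over all arrays or within each sex, 2 were lower and 1 higher, with a median of 0.02. In the joint fit 2 were lower, and without wild-type male array 2 and sesB1 male array 4 the count was 7. The meiotic arrest gene can (-0.81, adjusted p = 0.000297), the sperm tail gene dj (-0.79, adjusted p = 0.000126) and ocn (-0.45, adjusted p = 0.00122) changed most. Their part in the result for the seminal fluid genes was not tested. Over the 20 probesets, the medians by array relative to wild-type males were -0.25, -0.21, -0.29 and -0.33 in sesB1 males.

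**Figure D3:**
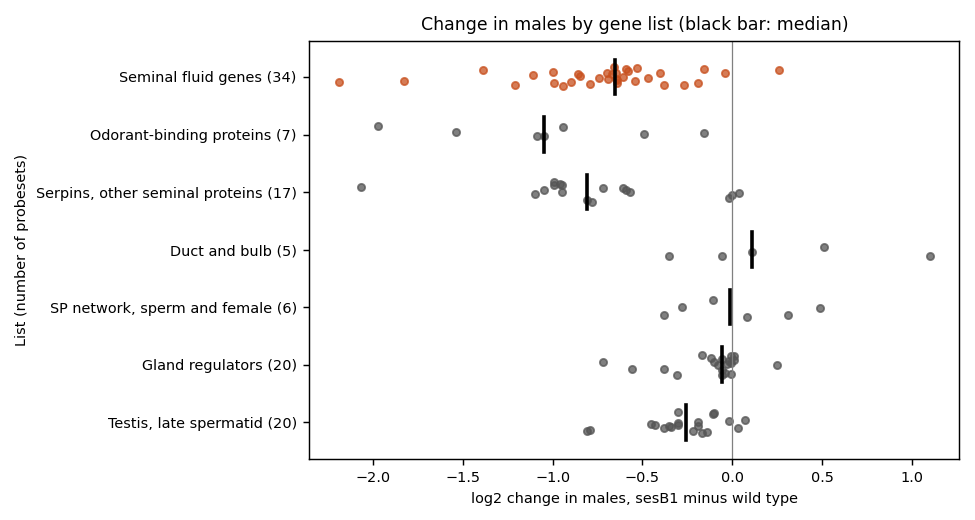
Log2 change in males, sesB1 minus wild type, of each probeset of the 34 seminal fluid genes and of the other lists, with the median of each list as a black bar. The seminal fluid genes and the odorant-binding proteins lie mostly below 0, with medians of -0.65 and -1.05. So does the list of serpins and other seminal proteins (-0.81), whereas the median of the gland regulators is -0.06.

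In females, which lack this gland, the same genes showed hardly any call. Of the 34, 1 was higher and none lower in sesB1 females at a limma adjusted p under 0.05, beside 13.4% of all probesets called higher and 18.9% called lower. After quantile normalization within each sex none was higher and 1, CG33325, was lower (-0.30, adjusted p = 0.0433). At an unadjusted p under 0.05, 4 were higher and none was lower. The share of all probesets past that threshold was not taken, so this count is no result about the members. The Student's t-test of the study's methods, here with Benjamini-Hochberg adjustment, called none of the 34. Without sesB1 female arrays 2 and 4, 2 genes were higher, and the median over the 34 genes was 0.06 in place of 0.47. The called gene was msopa, with -4.37, -3.28, -4.21 and -2.06 in sesB1 females and -4.95, -4.88 and -4.86 in wild-type females. Every sesB1 array was higher, with arrays 2 and 4 furthest (log2 fold change 1.41, standard error 0.48, adjusted p = 0.0499), and the difference was 0.60 (adjusted p = 0.00259) when these were left out.

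In the most male-enriched members the female arrays 2 and 4 stood apart in the same way. Acp53Ea had -6.93, -4.83, -7.04 and -2.14 in sesB1 females, against -7.02, -7.00 and -6.95 in wild-type females. Arrays 1 and 3 lay next to the wild-type range, and the log2 fold change of 1.76 (standard error 1.02, adjusted p = 0.253) became 0.00 without arrays 2 and 4. SP showed the same order, with -4.81, -3.75, -5.51 and -2.23 in sesB1 females and -5.42, -5.20 and -5.04 in wild-type females, and its log2 fold change of 1.15 (adjusted p = 0.231) became 0.06. The 19 members with a sex difference under 8 log2 units had medians of 0.12 in array 2 and 0.25 in array 4. Among these, CG33325 had -0.39, -0.44, -0.34 and -0.43 in sesB1 females and -0.31, -0.55 and -0.57 in wild-type females (0.08, adjusted p = 0.601), with overlapping groups. Standard errors were accordingly larger in females, with a median of 0.37 against 0.09 in males.

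The change in males was then tested against that in females as an interaction of sex and genotype. It was more negative in males for 16 of the 34 genes and less negative for none, beside 11.6% of all probesets called in the first direction and 16% in the other. All 34 estimates were negative. Among the called genes, those of Ebp (-2.97, adjusted p = 0.0302), Sfp24Bb (-2.54, adjusted p = 0.00132), Acp62F (-2.13, adjusted p = 0.0318) and msopa (-2.01, adjusted p = 0.0121) were furthest from 0, and each includes a positive female estimate. CG33325 (-1.91, adjusted p = 2.3e-05), Sfp26Ad (-1.79, adjusted p = 6.67e-05), Sfp33A3 (-1.48, adjusted p = 0.00931), Acp53C14c (-1.39, adjusted p = 0.00732), Sfp53D (-1.09, adjusted p = 7.67e-05) and aqrs (-1.05, adjusted p = 0.000106) followed. SP (-1.79, adjusted p = 0.0797) and Acp26Aa (-1.94, adjusted p = 0.0871) did not pass.

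The interaction was also fitted without sesB1 female arrays 2 and 4. It was then called for 23 genes, 22 more negative in males and 1, Acp98AB, more positive (0.46, adjusted p = 0.0175), and the median was -0.70 in place of -1.68. Ebp became -1.40 (standard error 0.14, adjusted p = 3.08e-05), Sfp24Bb -1.81 (adjusted p = 4.39e-05) and SP -0.71 (adjusted p = 0.0304), whereas CG33325 (-1.94) and Sfp53D (-1.14) changed little. Without wild-type male array 2 and sesB1 male array 4, the interaction was called for 12 genes, all more negative in males, and the calls of Ebp, Acp62F, Acp26Ab and antr were lost. For neither omission was the share of all probesets called taken. After quantile normalization over all arrays 5 genes were called more negative in males and 1, Acp32CD, less so (0.62, adjusted p = 0.0171). The estimate was then negative for 28 of the 34, with a median of -0.46. In that setting 1781 of all 18769 probesets were called in either direction.

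**Figure D4:**
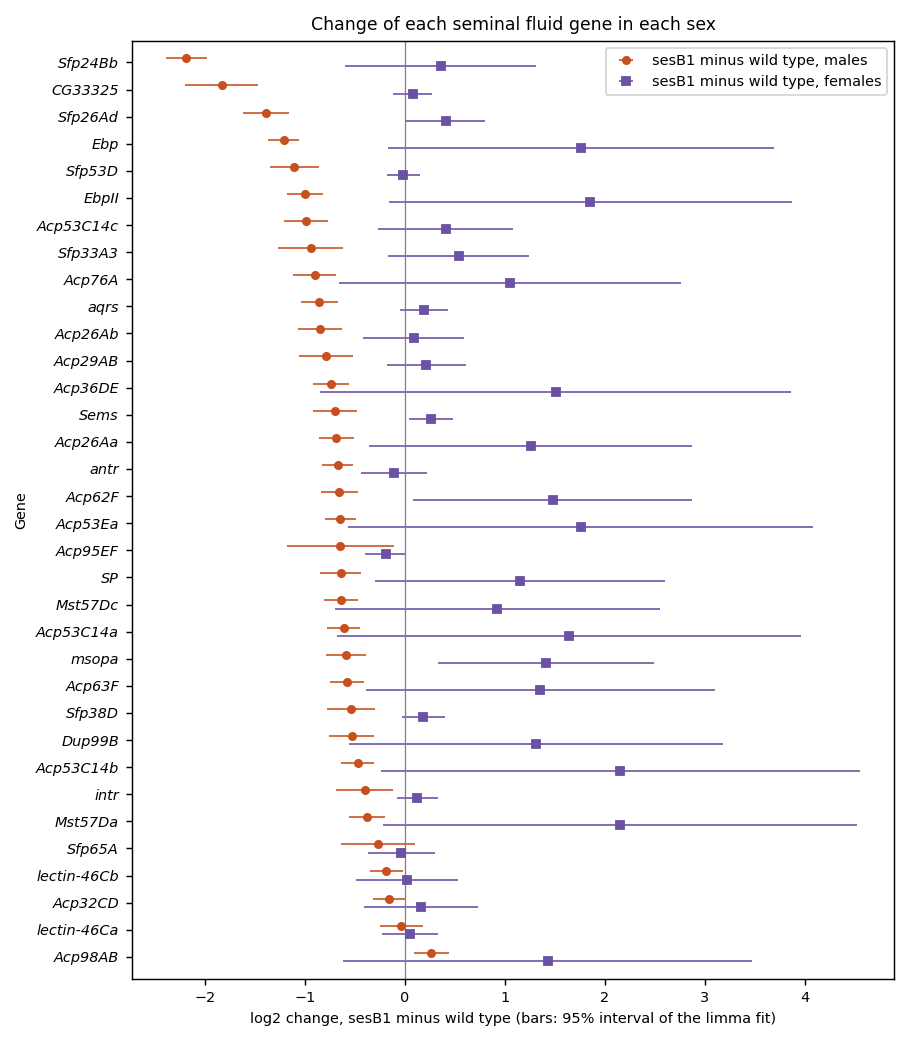
Log2 change of each gene, sesB1 minus wild type, in males (circles) and females (squares), with the 95% confidence interval of the limma fit. Male intervals are narrow and 28 genes are called lower, whereas female intervals are wide for the genes raised in sesB1 female arrays 2 and 4, such as Acp53Ea at 1.76.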

How the data were processed

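Genespring GX was used by the authors to normalize the raw array data. Not given in the sources used here are its version, how probes were summarised and whether low signals were filtered. Per probeset, the deposited column holds log2 signals whose median over the 14 arrays was 0 in each of the 18922 probesets with no gap. Brightness and signal over background are therefore lost. The deposited values were treated as a score, because 30 of the 265328 values were spreadsheet date serials. These were set to missing, and 1 of them fell in a member, EbpII in sesB1 male array 4. The other values lay between -9.1 and 6.19. The number of arrays limits the precision.

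Of 18952 probesets, 183 controls were left out. Each sex was fitted separately, as in the study's methods, on the values as deposited, by lmFit and eBayes of limma 3.58.1 under R 4.3.3, with Benjamini-Hochberg adjustment over 18769 probesets. The call was an adjusted p under 0.05. The interaction of sex and genotype and the comparison of wild-type males with wild-type females came from a fit of all 14 arrays. Array medians differed by at most 0.0852 within males and 0.1274 within females. Each of the 34 members matched the RefSeq gene table for Release 6, used for names and neighbours only. The members and lists were chosen with earlier results of these data known. Genes were named if among the 20 largest male, 10 largest female or 10 largest interaction calls, the 5 largest or 5 smallest sex differences, the members with a well known role, or the 3 largest male calls of each list. Others shown were chosen after their values were seen. The alternatives were a joint fit, quantile normalization, centring of arrays, array weights, robust eBayes, the replicate block, the methods' t-test, omission of probesets with dates, fold change thresholds of 1.5 and 2, and omission of each array. Omission of sesB1 female arrays 2 and 4 from the interaction, the joint fit and the sex comparison, and of wild-type male array 2 and sesB1 male array 4 from the interaction and the sex comparison, was chosen after seeing the data. In a test on simulated data for the male comparison over 18769 probesets, 84 of 100 changes of 0.75 and 98 of 100 changes of 1.5 on the log2 scale were found, with 8 false calls. For the interaction, 66 and 96 were found, with 11 false calls. The simulated spread was pooled over the 4 groups, females included, so these rates do not describe the male comparison of the members. Tables were handled with Python 3.11.15 and pandas 2.3.3.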

Additional observations from a re-analysis of the deposited data

Results flagged for a closer look

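The change in males differed from that in females by the interaction test in 16 genes, all more negative in males. Over all probesets, 11.6% were called in that direction and 16% in the other. The median over the 34 members was -1.68, and -0.70 without sesB1 female arrays 2 and 4. After quantile normalization over all arrays, 5 genes were called more negative. The main values (male minus female log2 change) were -2.97 for Ebp, -2.54 for Sfp24Bb, -2.13 for Acp62F, -2.01 for msopa, -1.91 for CG33325 and -1.79 for Sfp26Ad. The others were Sfp33A3 at -1.48, Acp53C14c at -1.39, Sfp53D at -1.09, aqrs at -1.05, Acp29AB at -1.0, Sems at -0.96, Acp26Ab at -0.94, Sfp38D at -0.72, antr at -0.56 and intr at -0.53. Among the 67 groups of 4 arrays examined, 2 held an array far from the other 3, and chance gives about 1 in 20. The check looks for a single array. It can miss a group with 2 raised arrays, such as sesB1 female arrays 2 and 4, so the count does not show that outlying arrays are rare. Sfp33A3 had a value of -2.17 in sesB1 female array 4, with -3.61 to -3.40 in the other sesB1 females. Sems had a value of -1.65 in sesB1 female array 3, with -1.91 to -1.87 in the others.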

How the results depend on the processing

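In males, the count of called genes was 29, and became 14 in the joint fit, 19 after quantile normalization within each sex and 6 at a threshold of 2-fold, and lay between 27 and 29 when 1 array was left out. With the replicate block it was 27. Deviations of same-numbered arrays from their group means correlated at -0.174 to 0.09. With so few arrays per group, this check cannot exclude a pairing or a shared batch. The main comparisons treated the arrays as unpaired. Of the 28 lower calls, 26 were kept in every alternative other than the joint fit of all arrays, the quantile normalizations and the fold thresholds (22 lower at 1.5-fold, 6 at 2-fold), the exceptions being intr and Mst57Da. The sign was reversed after quantile normalization over all arrays and within each sex for Acp26Ab (0.26 and 0.19), lectin-46Cb (0.09 and 0.10), lectin-46Ca (0.18 and 0.25) and Acp32CD (0.30 and 0.18), and for lectin-46Ca also with the replicate block (0.02), without sesB1 male replicate 4 (0.02) and without wild-type male replicate 3 (0.01), its range over single omissions being -0.11 to 0.02. In females the count of 1 became 0 after quantile normalization over all arrays, with arrays centred on their medians, with robust eBayes and with the methods' t-test, 2 with the replicate block, in the joint fit and without sesB1 female arrays 2 and 4, and 5 with array weights, and it was 0 to 1 when 1 array was left out, 0 without sesB1 female array 2 or any 1 of the wild-type female arrays. After quantile normalization within each sex it was 1, CG33325, called lower. Without sesB1 female arrays 2 and 4 the female value of Acp98AB was -0.19. For the interaction the count of 16 became 6 after quantile normalization over all arrays, 26 with array weights and 17 with the replicate block, and was 13 to 24 when 1 array was left out. After quantile normalization the interaction values of 6 genes were positive, those of Acp26Ab (1.39), Acp32CD (0.62), lectin-46Cb (0.28), lectin-46Ca (0.26), Acp98AB (0.14) and intr (0.04). Between wild-type males and wild-type females, 32 or 33 genes were called in every alternative, and Sfp65A reversed to -0.05 without wild-type male replicate 1, its range over single omissions being -0.05 to 0.38. Leaving out 1 array changed the interaction count most for sesB1 female array 3 (24, which is 1.5 times the count of 16). The cause was not tested for any of these changes, apart from the joint fit, whose error includes the female arrays, and the 2-fold threshold, which is stricter. Centred values carry no signal over background, so the lowest female levels have no stated floor.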

Other observations

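Of the related lists, 4 of 5 duct and bulb probesets and 1 of 7 odorant-binding protein genes were called higher in sesB1 females. None of the 17 serpins and other seminal proteins was. The share over all probesets was 13.4%. Without sesB1 female arrays 2 and 4 the counts were 3, 1 and 0. Obp56e and EbpIII, chosen after their values were seen, were higher in every sesB1 female array. Obp56e, an odorant-binding protein gene, had 0.40, 0.35, 0.18 and -0.01 in sesB1 females, against -2.02, -2.01 and -1.87 in wild-type females (log2 fold change 2.19, limma adjusted p = 5.1e-06), while its change in males was -0.16 (adjusted p = 0.373). The difference between the sexes was -2.36 (adjusted p = 6e-07). In wild-type males Obp56e had 0.24, -0.14 and 0.32, close to its values in sesB1 females. EbpIII had -0.28, -0.27, -0.52 and -0.38 in sesB1 females, against -1.20, -1.14 and -1.09 in wild-type females (0.78, adjusted p = 0.000262). Their values in sesB1 female arrays 2 and 4 lay within or next to the range of arrays 1 and 3.

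Of the 5 probesets left out because they name a seminal fluid gene with another gene, 3 were lower in sesB1 males and none higher. Over all probesets, 10.8% were called lower and 11.1% higher. The log2 fold changes of the 5 ran from -2.15 to 0.21, and such a probeset does not tell which of its genes changed. The accessory gland serpin Spn77Bb had -6.43, -4.97, -6.14 and -1.85 in sesB1 females, against -6.74, -6.40 and -6.57 in wild-type females, so that arrays 2 and 4 again stood highest, and it differed by -0.02 in males (adjusted p = 0.958).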
